A study of Mus musculus with 12 samples.

Results

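This comparison set mouse tumours given radiotherapy plus the agonist muFAP-4-1BBL (RT_FAP41BBL) against tumours given radiotherapy alone (RT), across all genes that passed a low-count filter. Its members were the 6 libraries with these treatment labels, 3 per group, out of 12 in all, and no measured value entered the choice. Every tumour was grown from TS/A cells, a mouse mammary carcinoma line, together with cancer-associated fibroblasts, and carried the genotype label WT. The other libraries were 3 of tumours given muFAP-4-1BBL alone (FAP41BBL) and 3 of tumours with no treatment by their label, called vehicle in the study's design text (control). The labels give no radiation dose, agonist dose, harvest time, animal age or strain. Nor do they say which animal each library came from, so p-values reflect only how these samples vary, and that variation may be technical.

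The receptor 4-1BB sits on activated T cells and natural killer (NK) cells, and its ligand, 4-1BBL, delivers a costimulatory signal that favours survival, proliferation and cytokine release. Unattached agonists of 4-1BB act throughout the body, and muFAP-4-1BBL is instead directed to fibroblast activation protein (FAP), a surface protease of activated fibroblasts in tumour stroma. Radiotherapy damages DNA, which engages p53 and, through nucleic acid sensing, type I interferon. T cells act on peptides shown by MHC molecules, with class I read by CD8 T cells and class II, carried mainly by dendritic cells, macrophages and B cells, read by CD4 T cells.

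The libraries held 37393177 to 38446771 counts in RT_FAP41BBL and 39367317 to 42067481 counts in RT. Levels are in CPM, a gene's share of the reads of its library on a scale shared by all libraries, and changes are log2 fold changes of RT_FAP41BBL over RT ± SE from edgeR's quasi-likelihood test, with p-values adjusted over all 17757 genes tested and a threshold of 0.05. Markers of the implanted cells were read from their lists: Col1a1, a fibrillar collagen of fibroblasts, stood at 2520.0, 2772 and 2625 CPM in RT_FAP41BBL and 2149, 2363 and 3132 CPM in RT, and Krt8, a keratin of simple epithelia, at 254, 247 and 259 CPM in RT_FAP41BBL and 368, 437 and 231 CPM in RT. Epcam, an adhesion molecule of epithelial cells, was low, at 4.13, 0.375 and 8.18 CPM in RT_FAP41BBL and 0.264, 0.218 and 0.723 CPM in RT. These 3 genes were chosen after their values were seen. Transcripts of skeletal muscle differed between the groups: the mean log2 CPM of 30 muscle genes was 4.16, 4.31 and 3.42 in RT_FAP41BBL and 6.996, 6.97 and 8.01 in RT, and the genes held 0.0909% to 0.150% of the counts in RT_FAP41BBL and 0.813% to 1.87% in RT. RT replicate 2 was the lowest RT library for 12 of 12 MHC class II genes, 22 of 24 T cell genes and 16 of 18 complement genes. In whole tumours, fewer cells of a type and less RNA per cell cannot be told apart.

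Between RT_FAP41BBL and RT 1022 of 17757 genes (5.76%) differed, 596 higher (3.36%) and 426 lower (2.4%) in RT_FAP41BBL. In RT_FAP41BBL, 8 of 24 T cell genes, 4 of 12 MHC class II genes, 6 of 20 dendritic cell genes, 7 of 27 macrophage genes, 4 of 18 complement genes and 5 of 18 checkpoint genes were higher, and in these lists 1 gene, of macrophages, was lower. Of skeletal muscle 7 of 30 genes and of heat shock and the unfolded protein response 6 of 25 were lower. No gene of the type I interferon, interferon-gamma, fibroblast or cell cycle lists passed edgeR's test in either direction. Of the called genes, 237 were over 2-fold higher and 245 over 2-fold lower, and the median log2 change over all genes tested was 0.00. By an unadjusted p under 0.05, 4086 genes differed. Of the 426 lower genes, 107 (25.1%) followed the muscle score across the FAP41BBL and control libraries, with a Spearman coefficient above 0.8, against 7 of the 596 higher genes (1.17%) and 3.4% of all genes. Groups did not overlap in 27.9% of all genes.

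The count of 1022 moved with single libraries. In leave-one-out fits it was 462, 205 and 70 without RT_FAP41BBL replicates 1, 2 and 3, and 448, 303 and 2305 without RT replicates 1, 2 and 3, and all 1022 genes kept their direction in each of these 6 fits. With only the 6 compared libraries in the fit 785 genes were called, 285 higher and 500 lower, so that the split was 36.3% higher in place of 58.3%. With muscle score added as a covariate no gene was called, the smallest adjusted p being 0.0505 for Mss51, and 2377 genes had an unadjusted p under 0.05. In that fit 1006 of the 1022 genes kept their direction, and the standard errors of the changes were a median of 1.57 times as large.

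**Figure D1:**
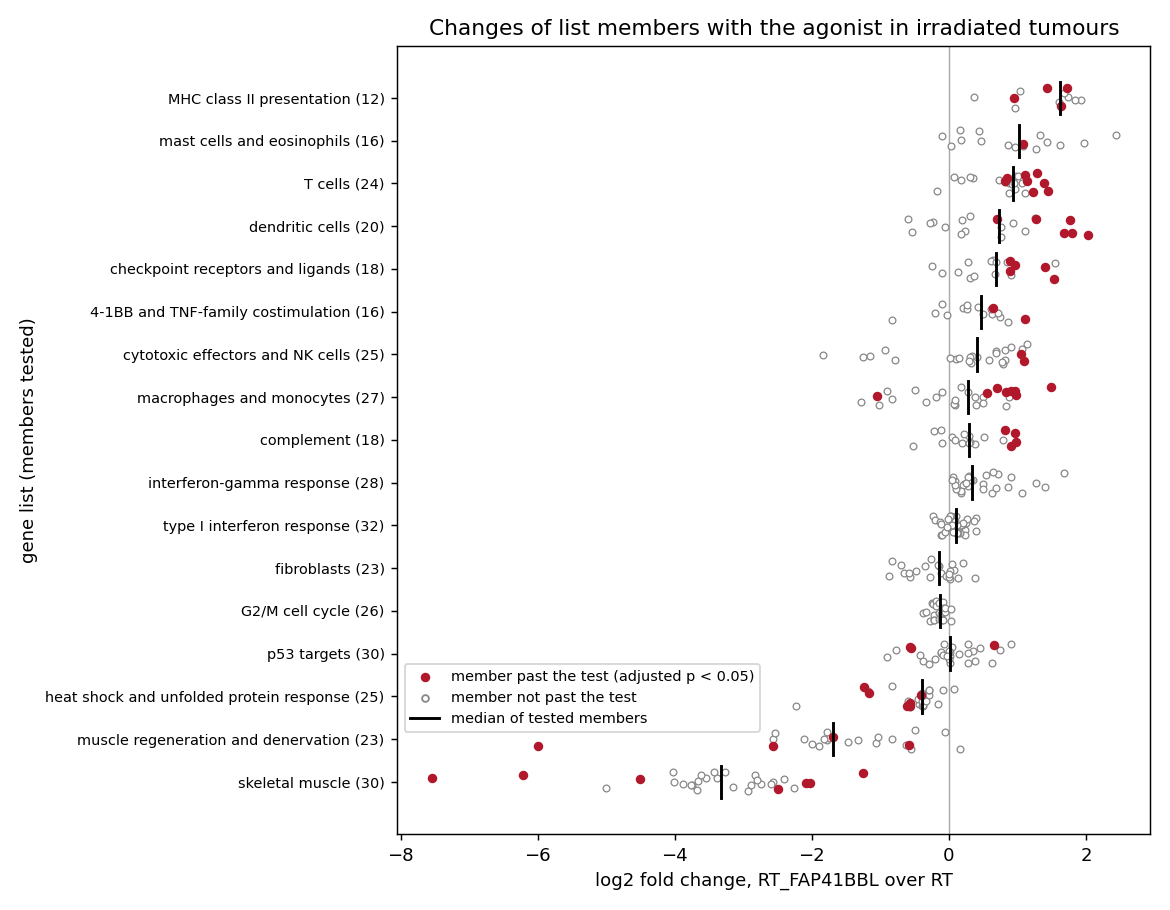
Log2 fold changes of the tested members of 17 gene lists, RT_FAP41BBL over RT, with 1 point per gene, filled where the gene passed the test, and a bar at the median of each list. MHC class II genes sit to the right of 0 with a median of 1.62 and skeletal muscle genes to the left with a median of -3.32, while type I interferon genes cluster around 0.10.

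The genes of the agonist's own axis did not pass the test. Fap, which encodes the protein the agonist is directed to (ENSMUSG00000000392.18, chromosome 2, 62331287 to 62404419, GRCm39), stood at 10.4, 5.92 and 6.75 CPM in RT_FAP41BBL and 14.8, 10.6 and 17.1 CPM in RT (log2 -0.88 ± 0.44, adjusted p = 0.259). All 3 RT_FAP41BBL libraries lay below the 3 RT libraries, the closest pair being almost level. The 4-1BB gene, Tnfrsf9 (ENSMUSG00000028965.14, on chromosome 4 at 150999019 to 151030559), was at 25.4, 33.8 and 32.03 CPM in RT_FAP41BBL and 36.2, 27.5 and 29.4 CPM in RT (log2 -0.03 ± 0.15, adjusted p = 0.934), and the groups overlapped. Tnfsf9, which encodes the natural ligand of 4-1BB, was at 11.8, 12 and 10.8 CPM in RT_FAP41BBL and 14.96, 13.5 and 11.4 CPM in RT (adjusted p = 0.439), again with overlap.

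Of 16 genes of 4-1BB and other costimulatory pathways, 2 rose and none fell, with a median of 0.47. Icosl, the ligand of the T cell costimulator ICOS on antigen-presenting cells, had 20.6, 23.8 and 22.6 CPM in RT_FAP41BBL against 13.8, 12.7 and 16.6 CPM in RT (log2 0.64 ± 0.13, adjusted p = 0.018). Cd27, a costimulatory TNF receptor of T cells, had 4.20, 4.98 and 6.08 CPM in RT_FAP41BBL against 2.78, 1.29 and 3.04 CPM in RT (log2 1.10 ± 0.30, adjusted p = 0.0485). Both sets of libraries were apart. Icos itself (0.63, adjusted p = 0.0822) and Tnfrsf14, a TNF receptor that binds LIGHT and BTLA (0.87, adjusted p = 0.0841), did not pass. Cd27 lost its call in 5 of the 6 leave-one-out fits and Icosl in 4 of them.

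T cell genes had 8 of 24 members higher in RT_FAP41BBL tumours, none lower and a median log2 change of 0.93. Cd4, the coreceptor of helper T cells (ENSMUSG00000023274.15, chromosome 6, 124841655 to 124865184), had 17.9, 25.9 and 19.9 CPM in RT_FAP41BBL and 8.04, 6.02 and 9.42 CPM in RT. Each RT_FAP41BBL library was above each RT library (log2 1.44 ± 0.23, adjusted p = 0.00844), and the call held in all 6 leave-one-out fits. Cd8a, a chain of the coreceptor of cytotoxic T cells (ENSMUSG00000053977.14, chromosome 6, 71350411 to 71356157), had 18.2, 21.6 and 28.01 CPM in RT_FAP41BBL and 11.1, 4.34 and 10.5 CPM in RT (log2 1.39 ± 0.32, adjusted p = 0.0321). The groups did not overlap, but RT replicate 2 was far below the others, and the call was lost in 5 of the 6 fits, staying only without RT replicate 3. Cd6, a surface receptor that tunes T cell activation, was at 5.28, 8.22 and 6.22 CPM in RT_FAP41BBL and 2.54, 2.40 and 3.17 CPM in RT (1.28 ± 0.24, adjusted p = 0.0137). Ubash3a, a phosphatase-related brake on T cell receptor signalling, rose by 1.22 (adjusted p = 0.0353). In 18 of the 24 genes every RT_FAP41BBL library exceeded every RT library, beside 2577 of all 17757 genes. RT replicate 2 was the lowest RT library in 22 of the 24. The number of T cell genes called was 4, 1 and 1 without RT_FAP41BBL replicates 1, 2 and 3 in turn, and 2, 1 and 13 without RT replicates 1, 2 and 3. With the muscle covariate the median was 0.92 and none was called.

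Checkpoint receptors and ligands, which restrain T cells, had 5 of 18 members higher and none lower, with a median of 0.68. Havcr2, which encodes TIM-3, had 64.4, 71.5 and 72.5 CPM in RT_FAP41BBL and 32.1, 33.2 and 47.4 CPM in RT (log2 0.89 ± 0.15, adjusted p = 0.0103). Vsir, which encodes VISTA, had 194, 227 and 251 CPM in RT_FAP41BBL and 131, 85.7 and 146 CPM in RT (log2 0.89 ± 0.17, adjusted p = 0.0128). The libraries of the groups were apart for both. Cd244a, a receptor of NK and T cells also called 2B4, was even across the RT_FAP41BBL libraries at 25.7, 26.6 and 25.8 CPM, against 8.14, 5.87 and 13.04 CPM in RT (log2 1.53 ± 0.29, adjusted p = 0.0155). Tox, a transcription factor of exhausted T cells, was higher by 1.39 (adjusted p = 0.0141) at a low level of 2.06 ± 0.429 CPM in RT_FAP41BBL and 0.781 ± 0.0611 CPM in RT (SD). Lag3, an inhibitory receptor that binds MHC class II, was the fifth (0.96, adjusted p = 0.0467), named after its values were seen. Pdcd1, which encodes PD-1, had 6.62, 9.54 and 10.5 CPM in RT_FAP41BBL and 7.11, 3.37 and 4.41 CPM in RT, with overlap (0.84, adjusted p = 0.0871). Its ligand gene Cd274 had 149, 276 and 212 CPM in RT_FAP41BBL and 132, 64.4 and 145 CPM in RT, apart by a small margin, and did not pass (0.90, adjusted p = 0.129). The count of 5 was 4, 2 and 0 without RT_FAP41BBL replicates 1, 2 and 3 in turn, and 5, 2 and 6 without RT replicates 1, 2 and 3.

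Regulatory T cell genes had 1 of 12 members higher. This was Ebi3, a subunit of the cytokines IL-27 and IL-35, with 14.5, 18.2 and 15.7 CPM in RT_FAP41BBL and 9.28, 6.55 and 10.3 CPM in RT (0.89 ± 0.16, adjusted p = 0.012). Foxp3, their defining transcription factor, was low in both groups, at 2.93, 4.58 and 2.57 CPM in RT_FAP41BBL and 1.53, 2.33 and 2.59 CPM in RT, with overlap (adjusted p = 0.234). Of 15 B and plasma cell genes 3 rose and none fell. Cd79b, a signalling chain of the B cell receptor, had 8.41, 9.56 and 13.5 CPM in RT_FAP41BBL and 3.30, 2.01 and 3.99 CPM in RT, apart in all libraries (log2 1.76 ± 0.26, adjusted p = 0.00583), and its call held in all 6 leave-one-out fits. Prdm1, the transcription factor Blimp-1 of plasma cells and effector T cells, was higher by 0.80 (adjusted p = 0.0204) and Cd22, an inhibitory B cell lectin, by 1.01 (adjusted p = 0.0481). Ighm, the IgM heavy chain gene, did not pass (0.95, adjusted p = 0.0708). Prdm1 lost its call in 3 of the 6 leave-one-out fits, Ebi3 in 2 and Cd22 in 5.

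Cytotoxic and NK cell genes split within their list: 2 of 25 rose, none fell past the test, and the median was 0.41. Other fits did call members lower, 4 by limma-voom (with 3 higher), 4 in the fit of the 6 compared libraries (with 1 higher), 3 by DESeq2 (with 7 higher) and 1 with the replicate block (with 1 higher). Both that rose encode NK receptors also found on CD8 T cells. Klrd1, which encodes CD94, had 10.3, 11.5 and 10.7 CPM in RT_FAP41BBL and 5.13, 3.57 and 7.08 CPM in RT (log2 1.04 ± 0.22, adjusted p = 0.0216), and Klrk1, which encodes NKG2D, had 50.5, 72.2 and 66.4 CPM in RT_FAP41BBL and 30.5, 20.2 and 37.9 CPM in RT (log2 1.09 ± 0.27, adjusted p = 0.0433). The groups did not overlap for either gene, and no member was called in 5 of the 6 leave-one-out fits, while 7 were called higher and 1 lower without RT replicate 3. Gzmb, the granule protease granzyme B, had 66.1, 109.9 and 68.2 CPM in RT_FAP41BBL and 75.3, 53.7 and 71.3 CPM in RT (0.29, adjusted p = 0.641), and Prf1, the pore-forming perforin, 29.97, 48.99 and 41.5 CPM in RT_FAP41BBL and 37.8, 24.5 and 34.05 CPM in RT (0.32, adjusted p = 0.541). Libraries of the groups overlapped for both. Ifng, the interferon-gamma gene, was at 2.29, 4.82 and 3.67 CPM in RT_FAP41BBL and 2.99, 0.582 and 2.19 CPM in RT and overlapped as well (adjusted p = 0.276). Tbx21, the transcription factor T-bet of type 1 lymphocytes (1.14, adjusted p = 0.0592), and Ctsw, a protease of cytotoxic cells (0.82, adjusted p = 0.077), did not pass. Members of the clustered granzyme family stood the other way without passing: Gzmd had 10.8, 17.2 and 17.2 CPM in RT_FAP41BBL and 39.02, 26.4 and 42.8 CPM in RT (adjusted p = 0.116) and Gzmg 5.71, 11.4 and 9.68 CPM in RT_FAP41BBL and 30.9, 19.6 and 45.4 CPM in RT (adjusted p = 0.154). These were chosen after their values were seen, and reads can be split between such near-identical genes.

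A pair of genes linked to NK and myeloid cells was among the 10 largest rises. Sh2d1b1, which encodes the signalling adaptor EAT-2 of NK cells (ENSMUSG00000102418.2, chromosome 1, 170104889 to 170114338), had 26.02, 22.7 and 31.6 CPM in RT_FAP41BBL and 6.66, 3.44 and 9.27 CPM in RT (log2 2.05 ± 0.32, adjusted p = 0.00866), with a call in all 6 leave-one-out fits. Klra17, of the Ly49 receptor family, had 14.4, 14.4 and 18.8 CPM in RT_FAP41BBL and 2.62, 1.04 and 3.96 CPM in RT (log2 2.64 ± 0.60, adjusted p = 0.0324). Klra genes are near-identical, so its value is uncertain, and it kept its call in 1 of the 6 leave-one-out fits, that without RT replicate 3.

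**Figure D2:**
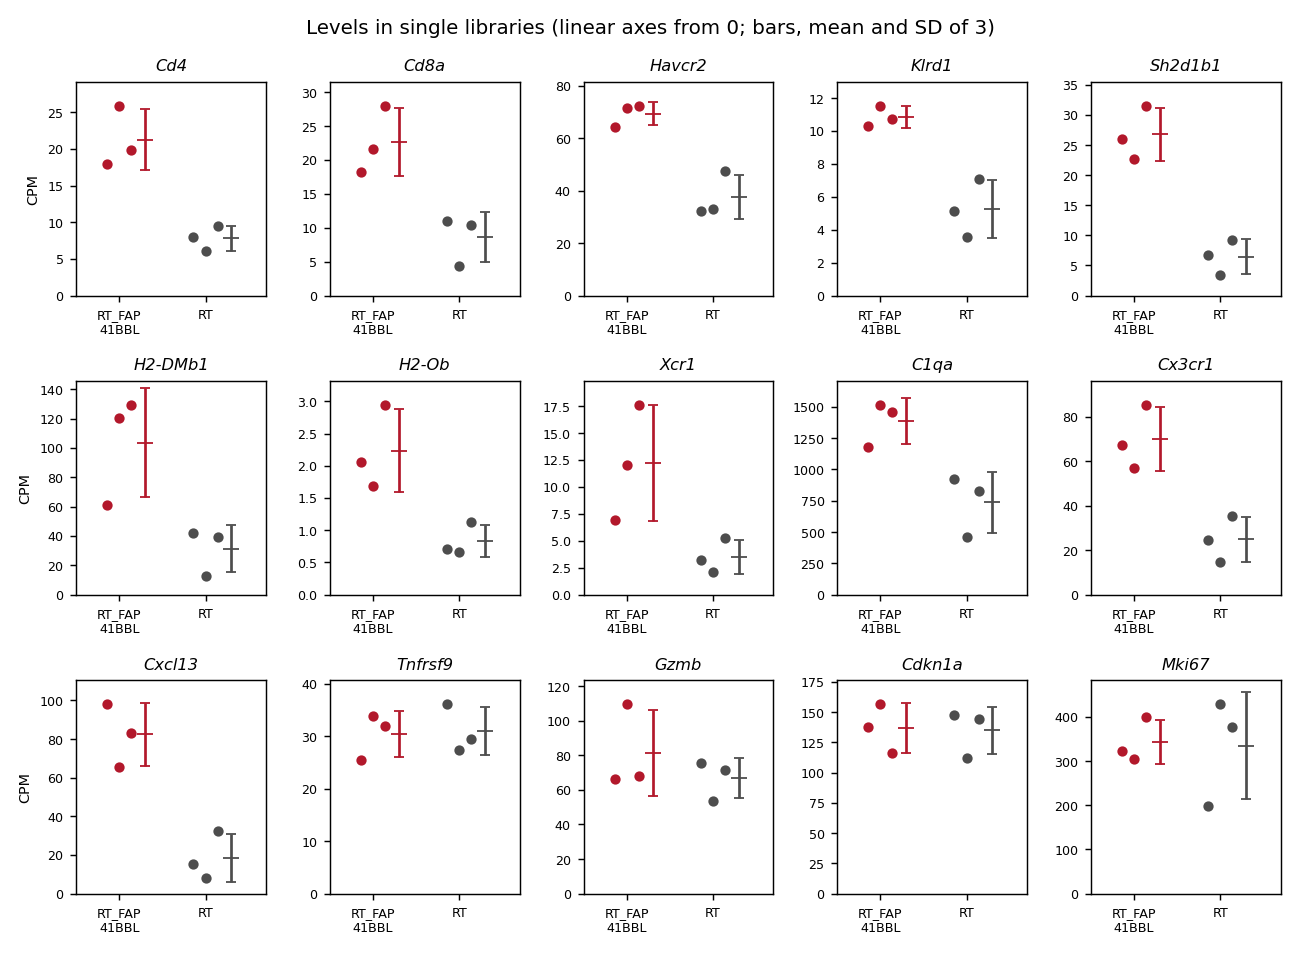
Levels of 15 genes in CPM in the 3 RT_FAP41BBL libraries (left in each panel) and the 3 RT libraries (right), with mean and SD of each group beside the points. The groups are apart for the first 11 genes, such as Cd4 and C1qa, and overlap for Tnfrsf9, Gzmb, Cdkn1a and Mki67.

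MHC class II presentation had the highest median of the immune lists, 1.62 over 12 tested genes, with all 12 above 0 and 4 past the test. In 11 of the 12 every RT_FAP41BBL library exceeded every RT library, beside 2577 of all 17757 genes. H2-DMb1, a chain of the peptide exchange factor H2-M (ENSMUSG00000079547.5, chromosome 17, 34372046 to 34379204), had 61.1, 120.2 and 129.5 CPM in RT_FAP41BBL and 41.8, 12.9 and 39.5 CPM in RT (log2 1.72 ± 0.41, adjusted p = 0.0399). Its near-copy H2-DMb2 had 37.7, 67.02 and 71.7 CPM in RT_FAP41BBL and 23.3, 7.93 and 25.6 CPM in RT (1.63 ± 0.38, adjusted p = 0.0381). For both, RT replicate 2 was far below the other RT libraries and RT_FAP41BBL replicate 1 was the lowest of its group. H2-Ob, a chain of H2-O, which restrains H2-M, had 2.06, 1.69 and 2.95 CPM in RT_FAP41BBL and 0.714, 0.655 and 1.12 CPM in RT (1.42 ± 0.31, adjusted p = 0.0228). Ctss, the protease cathepsin S that trims the invariant chain, had 1493, 1960.0 and 1853 CPM in RT_FAP41BBL and 919.9, 652 and 1174 CPM in RT (0.95 ± 0.19, adjusted p = 0.0185). The classical chain gene H2-Ab1, named after its values were seen, had 495, 1130.0 and 1294 CPM in RT_FAP41BBL and 359, 89.4 and 368 CPM in RT and missed the threshold (1.84 ± 0.50, adjusted p = 0.0596). The same held for Ciita, the master activator of class II transcription, with 37.2, 78.9 and 108 CPM in RT_FAP41BBL and 26.4, 7.71 and 36 CPM in RT (1.68 ± 0.54, adjusted p = 0.1).

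The number of class II genes called was 5, 1 and 0 without RT_FAP41BBL replicates 1, 2 and 3 in turn, and 0, 2 and 6 without RT replicates 1, 2 and 3. It was 10 by DESeq2 and by limma-voom, 0 in the fit of the 6 libraries alone and 0 with the muscle covariate, where the median was 1.65. The pair H2-DMb1 and H2-DMb2 can share reads, so the split between them is uncertain.

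Class II promoters are known for a conserved module whose Y box holds an inverted CCAAT box, read as ATTGG, close to the start of transcription. The 250 bases before the start of the 3 called MHC genes, from RefSeq, are shown because these genes stood together in the list, with ATTGG in capitals (CCAAT was searched as its reverse complement, and the motifs do not overlap).
H2-DMb1, GRCm38.p6, chr17:34152941-34153190, plus strand: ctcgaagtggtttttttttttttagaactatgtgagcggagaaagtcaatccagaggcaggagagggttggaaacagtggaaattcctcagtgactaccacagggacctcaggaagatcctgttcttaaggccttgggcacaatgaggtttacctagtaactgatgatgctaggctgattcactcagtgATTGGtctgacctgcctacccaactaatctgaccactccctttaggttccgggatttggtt
H2-DMb2, GRCm38.p6, chr17:34144999-34145248, plus strand: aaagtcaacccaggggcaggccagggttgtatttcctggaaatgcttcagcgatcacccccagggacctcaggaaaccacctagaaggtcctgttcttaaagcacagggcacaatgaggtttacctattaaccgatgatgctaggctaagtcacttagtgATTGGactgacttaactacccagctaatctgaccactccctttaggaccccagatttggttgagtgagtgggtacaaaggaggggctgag
H2-Ob, GRCm38.p6, chr17:34238655-34238904, plus strand: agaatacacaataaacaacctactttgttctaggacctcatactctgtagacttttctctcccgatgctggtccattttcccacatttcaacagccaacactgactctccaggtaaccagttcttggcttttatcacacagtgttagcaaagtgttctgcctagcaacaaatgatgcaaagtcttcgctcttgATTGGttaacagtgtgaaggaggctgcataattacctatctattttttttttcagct
The match began 61, 90 and 57 bases before the start in H2-DMb1, H2-DMb2 and H2-Ob. Of 9 tested class II genes with a promoter in that source, 6 held either form, against 34.5% of 27025 symbols. The letters are a match in a window and no measure of binding.

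Dendritic cell genes had 6 of 20 members higher, none lower and a median of 0.73. Xcr1, the chemokine receptor of cross-presenting dendritic cells, had 6.96, 12.1 and 17.6 CPM in RT_FAP41BBL and 3.25, 2.09 and 5.21 CPM in RT (log2 1.80 ± 0.38, adjusted p = 0.0218). Tlr12, a toll-like receptor of dendritic cells, had 8.51, 15.4 and 15.7 CPM in RT_FAP41BBL and 4.68, 1.31 and 3.71 CPM in RT (log2 2.03 ± 0.42, adjusted p = 0.0218). Cd207, the lectin langerin, had 3.67, 2.20 and 3.30 CPM in RT_FAP41BBL and 1.00, 1.04 and 0.798 CPM in RT (log2 1.68 ± 0.32, adjusted p = 0.0134). Treml4, a receptor of dendritic cells and macrophages, was higher by 1.76 (adjusted p = 0.0194). None of these 4 genes overlapped between the groups. The count of 6 was 6, 1 and 0 without RT_FAP41BBL replicates 1, 2 and 3 in turn, and 3, 2 and 9 without RT replicates 1, 2 and 3.

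Macrophage and monocyte genes had 7 of 27 members higher, 1 lower and a median of 0.28. Cx3cr1, the fractalkine receptor of monocytes and resident macrophages (ENSMUSG00000052336.8, chromosome 9, 119730682 to 119898945), had 67.4, 56.9 and 85.4 CPM in RT_FAP41BBL and 24.5, 14.7 and 35.2 CPM in RT (log2 1.49 ± 0.31, adjusted p = 0.0232). C1qa, C1qb and C1qc, which encode the chains of the complement starter C1q and are made mainly by macrophages, rose by 0.91, 0.96 and 0.98 (adjusted p = 0.0318, 0.035 and 0.038). C1qa had 1180.0, 1518 and 1462 CPM in RT_FAP41BBL and 923, 458 and 829.7 CPM in RT, and the lowest library was again RT replicate 2. The gene that fell was Spp1, which encodes osteopontin, with 94.8, 97.7 and 93.5 CPM in RT_FAP41BBL and 206, 252 and 137 CPM in RT (log2 -1.06 ± 0.19, adjusted p = 0.0112). The RT_FAP41BBL libraries were nearly equal and all below the RT libraries. Lilra5, an activating receptor of myeloid cells, was also among the 10 largest rises, with 20.6, 23.9 and 28.4 CPM in RT_FAP41BBL and 6.71, 2.48 and 5.91 CPM in RT (log2 2.27 ± 0.38, adjusted p = 0.0112). The 7 higher macrophage genes were 2, 1 and 0 without RT_FAP41BBL replicates 1, 2 and 3 in turn, and 3, 0 and 11 without RT replicates 1, 2 and 3. Complement had 4 of 18 members higher, the C1q genes and Cfb, factor B of the alternative pathway (0.82, adjusted p = 0.0459), and this count was 2, 0 and 0 without RT_FAP41BBL replicates 1, 2 and 3 in turn, and 3, 0 and 5 without RT replicates 1, 2 and 3.

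Chemokine genes were mixed, with 2 of 22 higher, none lower and a median of -0.10. That median had no stable sign, being 0.13 without RT replicate 1, 0.06 without RT_FAP41BBL replicate 3, 0.07 in the fit of the 6 compared libraries and -0.29 without RT_FAP41BBL replicate 2. The count of 2 was 0 without RT_FAP41BBL replicate 2 or 3, 1 without RT_FAP41BBL replicate 1 or RT replicate 1, and 2 without RT replicate 2 or 3, with 1 member lower in the last of these. Cxcl13, which attracts B cells and follicular T cells, had 98.3, 65.5 and 83.3 CPM in RT_FAP41BBL and 15.4, 8.20 and 32.3 CPM in RT (log2 2.15 ± 0.43, adjusted p = 0.0232), and Cxcl16, the ligand of CXCR6 on T cells, had 258, 341 and 291 CPM in RT_FAP41BBL and 164, 100.4 and 180.4 CPM in RT (log2 1.00 ± 0.20, adjusted p = 0.0158). The groups were apart for both. Ccl5, a T cell attractant, did not pass (0.79, adjusted p = 0.0825). Of 22 genes of cytosolic DNA and RNA sensing 2 rose (9.09%, beside 3.36% of all genes): Aim2, the DNA sensor of an inflammasome (0.97, adjusted p = 0.0112), and Ikbke, a kinase upstream of interferon regulatory factors (0.73, adjusted p = 0.0263). Of this list 9 members lay below 0. Its median of 0.15 turned to -0.04 without RT_FAP41BBL replicate 2 and to -0.02 with the muscle covariate. Of 16 mast cell and eosinophil genes 1 rose, Kit, the stem cell factor receptor (1.08, adjusted p = 0.0407), although 15 of the 16 lay above 0 and the median was 1.02. Tpsab1, a mast cell tryptase, had 66.4, 101 and 97.9 CPM in RT_FAP41BBL and 25.9, 15.6 and 44.5 CPM in RT without passing (1.63 ± 0.46, adjusted p = 0.0708). Ermap, an erythroid membrane protein (1.12, adjusted p = 0.0391), was the erythroid gene of 11 that rose, and Ltf, the neutrophil iron binder lactoferrin, the neutrophil gene of 15. These single calls were 9.09% of the erythroid and 6.67% of the neutrophil list, beside 3.36% of all genes. Most neutrophil genes, 11 of 15, lay below 0. Their median was -0.11, but 0.21 without RT replicate 3 and 0.62 with the muscle covariate. Ltf had 0.866, 0.321 and 6.27 CPM in RT_FAP41BBL and 0.0529, 0.121 and 0.224 CPM in RT, a change of 4.18 ± 1.02 (adjusted p = 0.0401) that was 2.13 without RT_FAP41BBL replicate 3 and then did not pass. Of these genes Aim2 lost its call in 1 of the 6 leave-one-out fits, Cxcl16 in 2, Ltf in 3, Cxcl13 in 4, and Ikbke, Kit and Ermap in 5.

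The interferon lists had no member past the test. Type I interferon genes had a median of 0.10 over 32 members and interferon-gamma genes 0.33 over 28, all 28 above 0. The type I median turned to -0.13 without RT_FAP41BBL replicate 2 and to -0.16 with the muscle covariate. The interferon-gamma median was 0.17 without RT_FAP41BBL replicate 2, 0.18 without RT replicate 2, 0.56 without RT replicate 1 and 0.04 with the covariate, and DESeq2 called 4 of its members higher and limma-voom 2. RT_FAP41BBL replicate 1 was the lowest of its group for 28 of these 28 genes and RT replicate 2 for 27. Irf8, a transcription factor of myeloid cells and of the interferon-gamma response, had 107, 148 and 142 CPM in RT_FAP41BBL and 97.6, 62.1 and 97.9 CPM in RT (0.62 ± 0.19, adjusted p = 0.0737). MHC class I presentation had 1 of 19 members higher, the class Ib gene H2-Q7 (0.65, adjusted p = 0.035), of a near-identical family. In the inflammatory list 1 of 28 rose, Nfkbiz, a co-regulator of NF-kB targets (0.76, adjusted p = 0.0247). These single calls were 5.26% of the class I list and 3.57% of the inflammatory list, beside 3.36% of all genes. H2-Q7 lost its call in 3 of the 6 leave-one-out fits and Nfkbiz in 5.

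Among 30 p53 targets 1 rose (3.33%) and 2 fell (6.67%), beside 3.36% higher and 2.4% lower over all genes. Cdkn1a, the p53-induced inhibitor of the cell cycle, overlapped between the groups, at 137, 157 and 116 CPM in RT_FAP41BBL and 148, 112 and 144 CPM in RT (log2 0.02 ± 0.14, adjusted p = 0.947). Ccng1, which encodes cyclin G1, had 158, 149 and 150.1 CPM in RT_FAP41BBL and 211, 215 and 250.5 CPM in RT (-0.56 ± 0.10, adjusted p = 0.0128), and Tnfrsf10b, the mouse TRAIL receptor, had 27.4, 27.4 and 23.6 CPM in RT_FAP41BBL and 36.9, 43.5 and 35.2 CPM in RT (-0.56 ± 0.11, adjusted p = 0.0155). Both fell with no overlap. Dcxr, a sugar reductase, rose by 0.66 (adjusted p = 0.0437). The proliferation marker Mki67 was at 322, 305 and 399 CPM in RT_FAP41BBL and 198, 430.1 and 377 CPM in RT, with the RT libraries on both sides (adjusted p = 0.955). Medians of the G2/M and G1/S lists were -0.13 and -0.11, with no call, and the G2/M median turned to 0.05 without RT replicate 2. Ccng1 lost its call in 2 of the 6 leave-one-out fits, Tnfrsf10b in 3 and Dcxr in 5.

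Few stromal genes passed the test, and in the matrix list 3.57% were lower, beside 2.4% of all genes. None of 23 fibroblast genes passed, with a median of -0.15 that turned to 0.07 with the muscle covariate, and 1 was lower without RT replicate 3 and in the fit of the 6 compared libraries. Of 28 matrix genes 1 fell, Fmod, the collagen-binding fibromodulin, with 1.94, 2.52 and 3.03 CPM in RT_FAP41BBL and 7.64, 8.25 and 13.4 CPM in RT (-1.97 ± 0.48, adjusted p = 0.0389), a call lost in all 6 leave-one-out fits. Of 21 genes of TGF-beta signalling 2 rose (9.52%, beside 3.36% of all genes), while 11 lay below 0 and the median was 0. The 2 were Tgfbi, a secreted matrix protein induced by TGF-beta, with 616, 674 and 622 CPM in RT_FAP41BBL and 351, 388 and 450.4 CPM in RT (0.68 ± 0.14, adjusted p = 0.0195), and the receptor gene Tgfbr1 (0.73, adjusted p = 0.0232). That count was 1, 0 and 0 without RT_FAP41BBL replicates 1, 2 and 3 in turn. It was 0, 0 and 2 without RT replicates 1, 2 and 3, with 1 member lower in the last of these. No endothelial gene of 27 passed, while DESeq2 called 4 higher, limma-voom 2, and 4 were called without RT replicate 3. Of 17 adipocyte genes 2 rose, Pparg, the master regulator of fat cells (0.96, adjusted p = 0.0392), and Lipe, hormone-sensitive lipase (0.71, adjusted p = 0.0499), with a median of 0.89. RT_FAP41BBL replicate 2 was the lowest of its group for 17 of 17 adipocyte genes and RT replicate 2 for 14, and the median was 0.54 without RT replicate 2, 0.58 without RT_FAP41BBL replicate 3 and 1.47 with the muscle covariate. DESeq2 called 2 adipocyte genes lower, beside 2 higher. Cldn7, a tight junction protein, was the epithelial gene of 18 that passed, at only 0.433, 0.0268 and 0.858 CPM in RT_FAP41BBL and 0, 0 and 0.0499 CPM in RT, the groups overlapping and the reads few. Tgfbi and Cldn7 lost their calls in 4 of the 6 leave-one-out fits, and Tgfbr1, Pparg and Lipe in 5. Cholesterol synthesis, early response and nerve genes had no call, with medians of -0.23, -0.04 and -0.18. The early response median turned to 0.09 without RT replicate 1 and 0.02 without RT_FAP41BBL replicate 1, the nerve median to 0.05 without RT replicate 3 and 0.26 with the muscle covariate, and DESeq2 and limma-voom called 1 nerve gene higher. Keratinocyte genes had no call either, and their median of -0.26 had no stable sign, being 4.60 without RT replicate 3, 0.98 by limma-voom, 0.42 with the replicate block and 6.21 with the covariate.

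Of 25 genes of heat shock and the unfolded protein response 6 fell in RT_FAP41BBL tumours, none rose, 24 lay below 0 and the median was -0.40. Hsph1, which encodes the chaperone Hsp105 (ENSMUSG00000029657.16, chromosome 5, 149537752 to 149559841), had 78.5, 86.9 and 87.9 CPM in RT_FAP41BBL and 177, 236 and 188 CPM in RT (log2 -1.25 ± 0.16, adjusted p = 0.00377). The groups were far apart, and the call held in all 6 leave-one-out fits. Cryab, the small heat shock protein alpha-B crystallin, which muscle also expresses strongly, had 65.6, 83.6 and 55.2 CPM in RT_FAP41BBL and 183, 138 and 137 CPM in RT (-1.16 ± 0.20, adjusted p = 0.0112). Bag3, a cochaperone, had 63.96, 67.3 and 65.1 CPM in RT_FAP41BBL and 88.7, 89.6 and 81.3 CPM in RT (-0.40 ± 0.09, adjusted p = 0.0218), and Asns, asparagine synthetase of the amino acid stress response, fell by 0.61 on the log2 scale (adjusted p = 0.0229). The groups were apart in these genes. With the muscle covariate the list's median was -0.36, and Hsph1 stood at -1.23 and Cryab at -0.72, with none called. The count of 6 was 2, 2 and 1 without RT_FAP41BBL replicates 1, 2 and 3 in turn, and 3, 2 and 13 without RT replicates 1, 2 and 3.

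Heat shock factors bind inverted repeats of GAA, of which GAANNTTC and TTCNNGAA are the shortest pairs. The 250 bases before the start of Hsph1 and of Dnaja1, an Hsp40 cochaperone that also fell (-0.56, adjusted p = 0.0467, named after its values were seen), are shown as called members with such a pair, in capitals. Each form is its own reverse complement, and they can overlap.
Hsph1, GRCm38.p6, chr5:149636337-149636586, minus strand: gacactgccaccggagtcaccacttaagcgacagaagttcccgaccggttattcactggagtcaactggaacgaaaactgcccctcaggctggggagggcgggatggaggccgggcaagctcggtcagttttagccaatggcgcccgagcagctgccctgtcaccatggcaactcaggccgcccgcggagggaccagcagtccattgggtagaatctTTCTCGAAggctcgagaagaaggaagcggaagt
Dnaja1, GRCm38.p6, chr4:40722218-40722467, plus strand: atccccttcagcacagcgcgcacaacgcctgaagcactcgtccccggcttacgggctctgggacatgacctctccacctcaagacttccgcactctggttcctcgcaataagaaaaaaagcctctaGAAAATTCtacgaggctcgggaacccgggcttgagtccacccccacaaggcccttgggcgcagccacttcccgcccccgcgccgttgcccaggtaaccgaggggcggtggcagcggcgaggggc
The match began 33 bases before the start in Hsph1 and 124 bases before it in Dnaja1. Of 21 tested members with a promoter in that source, 7 held a match, against 12.9% of all 27025 symbols. For a symbol with several entries the first was used.

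Of 23 clock and glucocorticoid-induced genes 2 fell. Per1, a core clock gene that glucocorticoids induce, had 34.1, 32.7 and 33.7 CPM in RT_FAP41BBL and 42.7, 66.2 and 54.5 CPM in RT (-0.70 ± 0.16, adjusted p = 0.0303), and Bhlhe40, a stress and clock repressor, had 76.3, 80.6 and 65.8 CPM in RT_FAP41BBL and 138, 124 and 97.9 CPM in RT (-0.69 ± 0.18, adjusted p = 0.0432). The libraries were apart for both. Per1 lost its call in 4 of the 6 leave-one-out fits and Bhlhe40 in 5.

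The largest rises also held genes outside the immune lists. Slc13a3, a transporter of dicarboxylates such as succinate (ENSMUSG00000018459.16, chromosome 2, 165246948 to 165315150), had 8.41, 8.22 and 9.52 CPM in RT_FAP41BBL and 2.22, 1.24 and 2.02 CPM in RT (log2 2.25 ± 0.28, adjusted p = 0.00338). Cyp26b1, which degrades retinoic acid (ENSMUSG00000063415.13, chromosome 6, 84548396 to 84570890), had 16.7, 19.9 and 18.3 CPM in RT_FAP41BBL and 3.57, 3.03 and 7.35 CPM in RT (log2 1.98 ± 0.30, adjusted p = 0.00809). Both were apart in all libraries and called in all 6 leave-one-out fits. Crym, a thyroid hormone binding protein, had 4.94, 4.98 and 6.54 CPM in RT_FAP41BBL and 1.45, 1.14 and 1.79 CPM in RT (1.91 ± 0.34, adjusted p = 0.0112), and Fcrl5, an Fc receptor-like protein of B cells, 28.4, 23.8 and 22.8 CPM in RT_FAP41BBL and 7.40, 2.67 and 7.88 CPM in RT (2.06 ± 0.51, adjusted p = 0.044). The groups were apart for both, and Crym lost its call in 2 of those fits and Fcrl5 in 5.

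The largest falls included genes of skeletal muscle. All 30 muscle genes lay below 0 with non-overlapping groups, beside 2385 of all 17757 genes that did so. Of the 30 genes 7 passed the test, and the median was -3.32. Myh7, the slow myosin heavy chain (ENSMUSG00000053093.17, chromosome 14, 55208141 to 55232083), had 0.0764, 0.911 and 0.0268 CPM in RT_FAP41BBL and 29.4, 56.2 and 104 CPM in RT (log2 -7.55 ± 0.87, adjusted p = 0.00449), with so few reads in RT_FAP41BBL that the fold is imprecise. Myl2, the regulatory myosin light chain of slow and heart muscle, had 0.178, 0.161 and 0.107 CPM in RT_FAP41BBL and 7.96, 9.49 and 16.6 CPM in RT (-6.22 ± 0.71, adjusted p = 0.00338). Eno3, muscle enolase, had 177, 195 and 164 CPM in RT_FAP41BBL and 432, 382 and 469 CPM in RT (-1.26 ± 0.16, adjusted p = 0.0036), and Tnnt1, slow troponin T, changed by -2.50 (adjusted p = 0.0134). Further large falls were Ampd1, muscle AMP deaminase (-4.51), Thbs4, a matrix thrombospondin of muscle and tendon (-4.34), Phkg1, muscle phosphorylase kinase (-4.11), and Ppp1r3c, a glycogen-targeting phosphatase subunit (-3.52). Scn4b, a sodium channel subunit (-3.79), Perm1, a regulator of mitochondrial genes in muscle (-3.51), Prr33 (-3.78) and Ppp1r27, a phosphatase regulator (-3.48), were of like size. The energy genes that fell were muscle forms or enzymes abundant in muscle: Cox7a1 (-2.87) and Cox6a2 (-2.72), subunits of cytochrome oxidase, and the glycolytic Aldoa (-0.59). The muscle score of the libraries differed by -3.36 (exact permutation test, two-sided, p = 0.1, the smallest that 3 libraries against 3 allow). The score was chosen with muscle transcripts already known to be high in these RT libraries, so this p-value is no independent evidence. The count of 7 was 4, 4 and 3 without RT_FAP41BBL replicates 1, 2 and 3 in turn, and 4, 4 and 6 without RT replicates 1, 2 and 3, and it was 26 by DESeq2, 21 by limma-voom and 30 with only the 6 compared libraries in the fit.

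Of 23 genes of muscle regeneration and denervation 4 fell, with a median of -1.69. Igfn1, a sarcomere-associated protein (ENSMUSG00000051985.13, chromosome 1, 135881316 to 135934080), had 0.255, 0.214 and 0.134 CPM in RT_FAP41BBL and 12.5, 9.46 and 17.3 CPM in RT (log2 -6.00 ± 0.47, adjusted p = 0.000154). Chrna1, the muscle acetylcholine receptor subunit that rises on denervation, had 2.65, 2.57 and 1.31 CPM in RT_FAP41BBL and 14.2, 9.73 and 14.9 CPM in RT (-2.57 ± 0.54, adjusted p = 0.0234). Cdh15, the cadherin of muscle precursors, had 1.35, 2.17 and 0.938 CPM in RT_FAP41BBL and 5.42, 3.79 and 5.18 CPM in RT (-1.69 ± 0.35, adjusted p = 0.0202), and Ankrd1, a stretch-responsive factor, 84.9, 88.6 and 67.1 CPM in RT_FAP41BBL and 112, 130.1 and 119 CPM in RT (-0.58 ± 0.14, adjusted p = 0.0341). The groups were apart in all 4. Igfn1 kept its call in all 6 leave-one-out fits, Cdh15 in 3, and Chrna1 and Ankrd1 in 1.

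Some large falls did not follow the muscle score across the FAP41BBL and control libraries, by the Spearman cut of 0.8. Over 6 libraries that cut is coarse, so these genes may still depend on muscle content. Mss51, a mitochondrial protein known from muscle (ENSMUSG00000021815.5, chromosome 14, 20532935 to 20546969), had 1.73, 1.88 and 1.58 CPM in RT_FAP41BBL and 14.3, 13.4 and 21.3 CPM in RT (log2 -3.24 ± 0.26, adjusted p = 0.000154). Angptl1, an angiopoietin-like secreted protein, had 1.20, 1.47 and 1.13 CPM in RT_FAP41BBL and 14.99, 20.9 and 20.3 CPM in RT (-3.89 ± 0.48, adjusted p = 0.0037), and Kcnc4, a potassium channel, had 1.53, 2.17 and 1.45 CPM in RT_FAP41BBL and 12.5, 9.12 and 12.6 CPM in RT (-2.73 ± 0.52, adjusted p = 0.0155). No libraries of the groups overlapped. Hmcn2, a hemicentin of the matrix, Tpbgl, Lrrc14b, Mustn1, a nuclear protein of muscle and bone, Sel1l3 and Mlf1 fell by 2.73, 2.57, 2.46, 2.33, 2.30 and 2.28 on the log2 scale. With the muscle covariate Ampd1 stood at -0.01, Chrna1 at -0.34 and Tnnt1 at -0.68, whereas Mss51 stood at -2.78, Igfn1 at -5.25, Cd4 at 1.16, H2-DMb1 at 1.77 and Slc13a3 at 2.31, none of them past the test. Other genes that did not follow the score also moved towards 0 with the covariate: Kcnc4 stood at -1.05, Angptl1 at -2.70, Tpbgl at -1.47, Hmcn2 at -1.28, Mustn1 at -0.84, Mlf1 at -0.77, Sel1l3 at -0.57, Lrrc14b at -0.53 and Perm1 at -0.01. The medians of the skeletal muscle and the muscle regeneration lists turned to 0.55 and 0.52 with the covariate. For the skeletal muscle list the loss of the fall was built in, since the covariate is the mean of those same genes. The score separated the groups in these 6 libraries, so that treatment and muscle content cannot be told apart here.

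**Figure D3:**
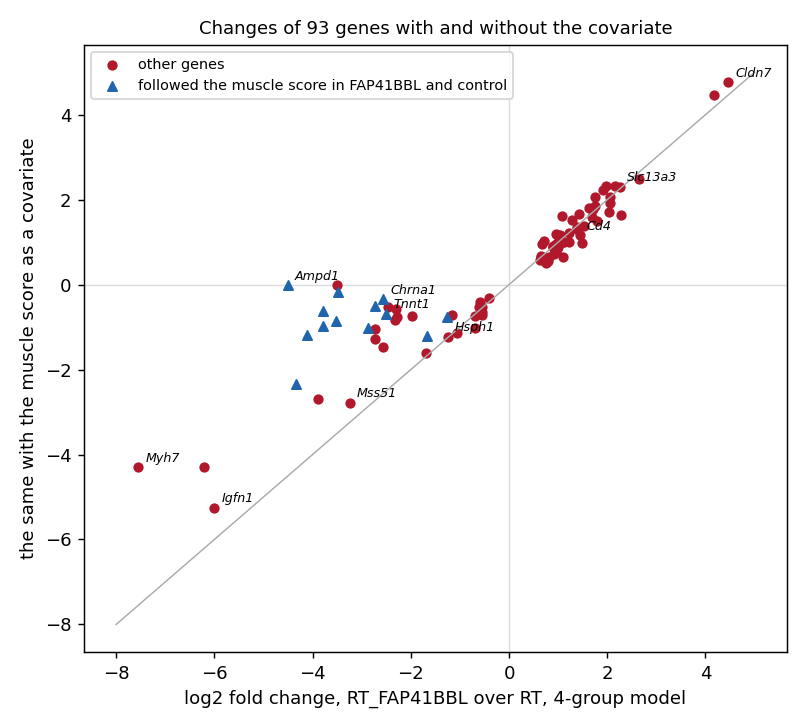
Log2 fold changes, RT_FAP41BBL over RT, of 93 called genes named in the text, from the 4-group model (horizontal axis) and with the muscle score as a covariate (vertical axis), with the line of equal values. Triangles are the 13 genes that followed the muscle score, with a median of -0.77 with the covariate and -3.48 without it, and the 53 rising genes lie near the line, with a median of 1.16 with the covariate and 1.12 without it.

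The comparison of FAP41BBL with control shares no library with that of RT_FAP41BBL with RT. It gave the differences between tumours with and without the agonist where no radiotherapy was given. The interaction tested whether the 2 changes differed. Without radiotherapy 1 gene of 17757 (0.00563%) was called, Per1, at 46.6, 49.5 and 35.6 CPM in FAP41BBL and 134, 135 and 104 CPM in control (log2 -1.50 ± 0.17, adjusted p = 0.0141), and 918 genes had an unadjusted p under 0.05. Without control replicate 1 or control replicate 2 no gene was called, and the count was 2 without FAP41BBL replicate 1 or replicate 3 and 3 without control replicate 3. Per1 was thus lower with the agonist in both settings, and the difference between the 2 changes did not pass the interaction test (0.80 ± 0.23, adjusted p = 0.155). The median of the T cell list was 0.39 in FAP41BBL against control, beside 0.93 in RT_FAP41BBL against RT. That of MHC class II presentation was -0.02 beside 1.62, and that of skeletal muscle 0.87 beside -3.32. None of these list differences was tested, and no member of the T cell, class II or skeletal muscle list passed the interaction test. Genes of muscle were still among its calls. The muscle regeneration and denervation list had 2 of 23 members called, Igfn1 and Ankrd1, and Mss51, known from muscle, was called as well. Nor were these all: genes of a myosin light chain and a tropomyosin, outside the skeletal muscle list, were also called lower. Further lower calls followed the muscle score across the FAP41BBL and control libraries.

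The interaction called 27 genes (0.152%), 5 higher and 22 lower, and 2497 genes had an unadjusted p under 0.05. Of the 27, 25 were also called in RT_FAP41BBL against RT, with which the interaction shares libraries. Mss51 was at 2.39, 1.62 and 1.54 CPM in FAP41BBL and 2.08, 2.14 and 1.40 CPM in control, and its change with the agonist differed by -3.22 ± 0.35 between irradiated and other tumours (adjusted p = 0.0117). Hsph1 stood at 159.7, 122 and 102 CPM in FAP41BBL and 104, 97.02 and 79.8 CPM in control (interaction -1.70 ± 0.23, adjusted p = 0.0307). Sla, an adaptor that dampens antigen receptor signalling, named after its values were seen, had 87.3, 88.3 and 90.7 CPM in RT_FAP41BBL, 29.8, 39.2 and 45.02 CPM in RT, 49.99, 67.4 and 43.2 CPM in FAP41BBL and 89.2, 86.5 and 85.5 CPM in control (interaction 1.92 ± 0.23, adjusted p = 0.0154). The RT_FAP41BBL and control libraries were thus at one level and the RT and FAP41BBL libraries below it. Cyp26b1 had 5.26, 7.26 and 6.18 CPM in FAP41BBL and 10.97, 15.96 and 9.75 CPM in control (interaction 2.95 ± 0.42, adjusted p = 0.0311). The agonist groups thus lay on opposite sides of the groups they were compared with. However, the lower level in FAP41BBL than in control did not itself pass edgeR's test (log2 -0.97 ± 0.29, adjusted p = 0.732). Ptgs2, the prostaglandin synthase COX-2, named after its values were seen, had 113, 111 and 135 CPM in RT_FAP41BBL, 158, 161 and 155 CPM in RT, 75.8, 122 and 89.3 CPM in FAP41BBL and 37.97, 48.4 and 49.6 CPM in control (interaction -1.48 ± 0.23, adjusted p = 0.0311). The count of 27 was 0 without each RT_FAP41BBL library in turn, 14, 17 and 269 without RT replicates 1, 2 and 3, 6, 104 and 8 without FAP41BBL replicates 1, 2 and 3, and 8, 1 and 8 without control replicates 1, 2 and 3. It was 0 with the muscle covariate.

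**Figure D4:**
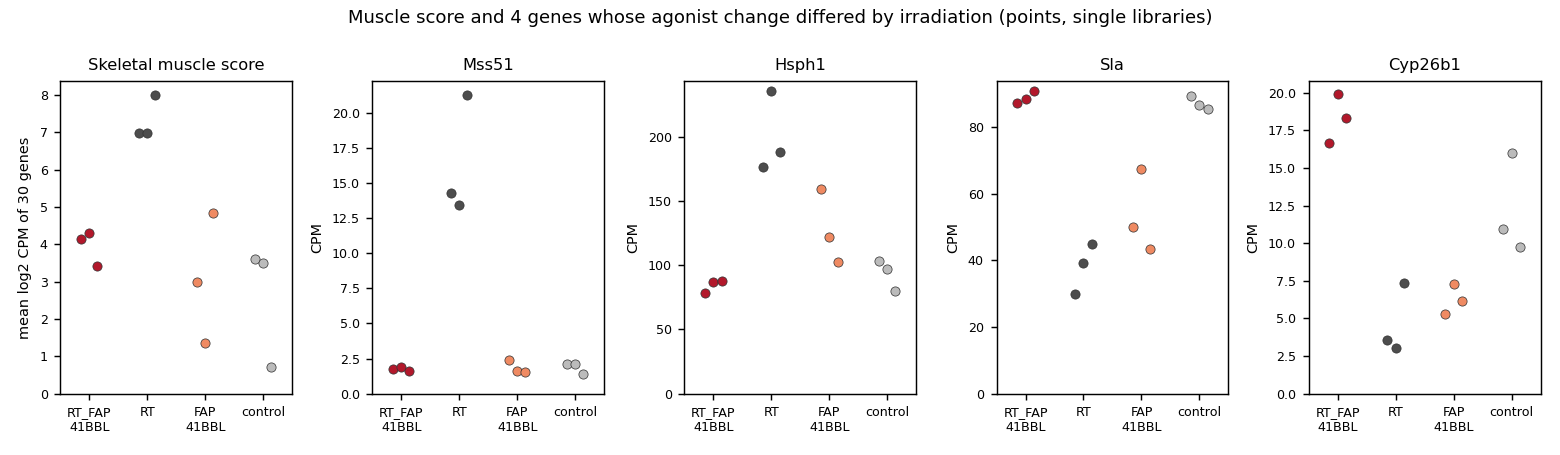
Skeletal muscle score (mean log2 CPM of 30 genes) and levels of Mss51, Hsph1, Sla and Cyp26b1 in CPM in the 12 libraries, from left to right RT_FAP41BBL, RT, FAP41BBL and control, with 1 point per library. The RT libraries are the highest in muscle score, Mss51 and Hsph1, while Sla and Cyp26b1 are higher in RT_FAP41BBL and control than in RT and FAP41BBL.

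Radiotherapy alone, which shares the RT libraries and whose changes are therefore not independent of those above, is given for its values only. Against control, log2 changes were -0.43 in RT_FAP41BBL and -1.93 in RT for Cx3cr1, 0.40 in RT_FAP41BBL and -1.32 in RT for H2-DMb1, and 1.00 in RT_FAP41BBL and 0.09 in RT for C1qa. For Hsph1 they were -0.15 in RT_FAP41BBL and 1.10 in RT, and for Mss51 -0.11 in RT_FAP41BBL and 3.12 in RT.

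Of 93 called genes named in the text, 14 stayed past the test in all 6 leave-one-out fits: Angptl1, Cd4, Cd79b, Clu, Cyp26b1, Eno3, Hsph1, Igfn1, Mss51, Myh7, Myl2, Sh2d1b1, Sla and Slc13a3. Clu, which encodes the secreted chaperone clusterin and was named after its values were seen, had 23.1, 19.8 and 18.8 CPM in RT_FAP41BBL and 81.05, 59.7 and 57.4 CPM in RT (log2 -1.68 ± 0.21, adjusted p = 0.00341) and followed the muscle score in FAP41BBL and control. The other 79 lost the call in at least 1 of these fits, all 79 without RT_FAP41BBL replicate 3 and 4 without RT replicate 3, and none changed direction.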

How the data were processed

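Polyadenylated RNA was sequenced in 12 tumour libraries. The deposited values are whole-number read counts per gene, which the authors obtained with featureCounts 1.6.0, counting read pairs on the reverse strand over the exons of GENCODE M33 genes, per the file headers. Alignment with STAR 2.7.9a to GRCm39 is named in the submitters' processing notes. Of 56884 genes 51948 (91.3%) were given a symbol. The deposited counts were fitted here with edgeR 4.0.16 in R 4.3.3 (filterByExpr, TMM scaling, robust quasi-likelihood test) in a model of 4 groups over 12 libraries, with Benjamini-Hochberg adjustment over 17757 genes and a threshold of 0.05. Group and interaction contrasts were taken from this fit. Alternatives used DESeq2 1.42.0, limma-voom 3.58.1, other scalings, no filter, the 6 compared libraries alone, a replicate block, the muscle score (mean log2 CPM with a prior count of 2) as a covariate, and each library left out. The code was tested on simulated counts. No pair of libraries within a group differed by sampling noise alone (chi-square per degree of freedom of at least 17.7). The genes named are those called, with a mean log2 CPM over the 6 libraries of 1 or more and groups apart, that had the 10 largest rises and falls, with and without genes of muscle, up to 4 members per list by p, and key genes of the agonist and of T cells; uncalled members of the lists are given only where they bear on a result. A gene that this rule selects is not reported here. Further genes are said to be chosen after their values were seen. The members and the 38 lists were chosen with earlier results of these data known. Promoter sequences came from RefSeq tables of GRCm38.p6 and were matched by symbol, while gene coordinates are those of the deposited files in GRCm39.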

Additional observations from a re-analysis of the deposited data

Results flagged for a closer look

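For 9 genes named in the text, the change with the agonist differed between irradiated and other tumours by the interaction test in edgeR, and each value here is the log2 change of RT_FAP41BBL over RT minus that of FAP41BBL over control. It was negative for Igfn1 (-6.65 ± 0.91, adjusted p = 0.0307), Mss51 (-3.22 ± 0.35, adjusted p = 0.0117), Clu (-1.89 ± 0.29, adjusted p = 0.0311), Hsph1 (-1.70 ± 0.23, adjusted p = 0.0307), Ptgs2 (-1.48 ± 0.23, adjusted p = 0.0311) and Ankrd1 (-1.18 ± 0.20, adjusted p = 0.0437). It was positive for Cyp26b1 (2.95 ± 0.42, adjusted p = 0.0311), Slc13a3 (2.56 ± 0.39, adjusted p = 0.0311) and Sla (1.92 ± 0.23, adjusted p = 0.0154). Igfn1 had 0.255, 0.214 and 0.134 CPM in RT_FAP41BBL, 12.5, 9.46 and 17.3 CPM in RT, 0.0755, 0.174 and 0.0580 CPM in FAP41BBL and 0.112, 0.0772 and 0 CPM in control. The muscle score was highest in the 3 RT libraries, and its part in these differences was not tested gene by gene beyond the covariate fit, in which no gene passed.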

How the results depend on the processing

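The count of 1022 genes was 993 with RLE size factors, 1009 with library totals, 855 without the low-count filter and 1366 by limma-voom, and 2063 (1120 higher, 943 lower) by DESeq2. The higher genes were 285 with only the 6 compared libraries in the fit. With the muscle covariate 0 genes were called, 0 higher and 0 lower. Leaving out 1 library gave 70 to 2305 genes, 25 to 1274 higher and 45 to 1031 lower. The interaction count of 27 was 17 with library totals, 102 without the filter, 639 by DESeq2, 0 with the covariate and 0 to 269 with 1 library left out. FAP41BBL against control gave 9 genes without the filter, 48 by DESeq2, 2 with the covariate and 0 to 3 with 1 library left out. The difference in muscle score lay between -3.541 and -3.021 with 1 library left out. Among genes that were not called, the sign turned for Tnfrsf9 (0.08 without RT_FAP41BBL replicate 1, 0.10 without RT replicate 1, range -0.13 to 0.10), Gzmb (-0.10 with the covariate), Prf1 (-0.02 with the covariate), Cdkn1a (-0.09 without RT_FAP41BBL replicate 2, -0.11 without RT replicate 2, range -0.11 to 0.13), Mki67 (-0.09 without RT_FAP41BBL replicate 3, -0.24 without RT replicate 1, 0.00 with the covariate, range -0.24 to 0.24) and Col1a1 (-0.06 without RT replicate 1, -0.02 without RT replicate 2, range -0.06 to 0.22). Apart from the fits with fewer libraries, the cause was not tested.

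With the replicate number as a block 1172 genes were called, and 9 in the interaction. The labels do not say whether the numbers pair the samples. Same-numbered RT_FAP41BBL and RT libraries correlated at -0.09, 0.08 and 0.19 in their deviations from the group means. Libraries with unlike numbers correlated at -0.17 to 0.12. So few values neither show nor exclude a pairing. With 3 libraries per group, small changes of genes with few reads were not detectable.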
